A study of Mus musculus with 8 samples.

Results

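Voltage-gated sodium and calcium channels are the proteins that let excitable cells fire. A sodium channel is built from 1 large pore-forming alpha subunit, which opens when the membrane is depolarised, and small beta subunits that tune its gating and act in cell adhesion. A calcium channel has a pore-forming alpha1 subunit with an extracellular alpha2delta subunit, which brings channels to the surface and to synapses, and a cytoplasmic beta subunit. The gamma genes are related to a muscle calcium channel subunit, and several of them encode the transmembrane partners of AMPA-type glutamate receptors known as TARPs. Neurons, heart and muscle each use their own set of alpha subunits, so that the promoters open in a cell type are a part of its identity. Many neuronal channel genes carry an RE1 element, the site through which the repressor REST silences them in cells outside the nervous system.

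The members were chosen by name from the GENCODE mouse annotation, release M21. They are protein-coding genes named Scn with a number and a or b, or beginning with Cacna1, Cacna2d, Cacnb or Cacng. Described here are 38 such genes of 21951 protein-coding genes, with 9 sodium alpha, 3 sodium beta, 10 calcium alpha1, 4 alpha2delta, 4 calcium beta and 8 gamma genes. Open chromatin at these genes was read from ATAC-seq, in which a transposase cuts accessible DNA, in SN4741 cells. SN4741 is a mouse line from embryonic substantia nigra that was made as a model of dopaminergic neurons and carries a temperature-sensitive T antigen. The 4 libraries at the permissive temperature came from cells at 37 °C in 10% serum, where the T antigen is active and the cells divide. The 4 libraries at the non-permissive temperature came from cells held at 39 °C for 48 h in 0.5% serum. Temperature and serum cannot be told apart in this design. The line is polyploid and its chromosome complement varies from cell to cell. The labels do not say whether replicates were separate cultures, so p-values measure the spread between libraries of 1 line, which may be technical.

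The peak lists at 37 °C held 74026 to 92013 peaks and those at 39 °C held 54845 to 68410 (p = 0.0286 in a two-sided exact permutation test, which is as low as 4 against 4 libraries can go). The peak caller kept 49.8 to 169 M (M for mega) fragments per library at 37 °C, with 2 deep libraries, and 52.7 to 71.2 M at 39 °C. Rank differences are therefore also given for the 6 libraries of fewer than 100 M fragments, of which 2 were at 37 °C. The files give no read counts per region, so a feature was described by the number of libraries that called it and by its rank. The rank is the percentile of the −log10 q of its peak within its own library, where 100 is the strongest peak. A percentile depends on the length of the list, since a shorter list can hold fewer weak peaks below a given promoter, and the lists at 39 °C were shorter. The percentile was therefore also taken among the 13145 promoters that all 8 libraries called, here the common promoters, a scale chosen after the data were seen. In bulk libraries, fewer cells with an open region and a region less open in each cell cannot be told apart.

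The identity of the cells was checked by promoter peaks at markers listed with the members. All 5 neural precursor markers (Nes, Sox2, Vim, Mki67, Pax6) had a promoter peak in all 8 libraries. Of 5 neuronal markers, Tubb3, Rbfox3, Snap25 and Map2 were called in all 8 libraries and Syt1 in 7 of 8. The skeletal muscle factors Myod1 and Myog were called in none, while Ckm was called in all 8, Tnnt3 in 7 of 8 and Acta1 in 1. The heart genes Nppa and Actc1 were called in none, Tnnt2 in all 8, and Myh6 and Nkx2-5 in 3 libraries at 37 °C only. Fibroblast or mesenchyme markers were called in all 8 libraries for 4 of 5 genes (Thy1 in none), endothelial markers for 2 of 5, astrocyte markers for 3 of 4 and oligodendrocyte markers for 1 of 4. Promoter peaks were thus found at markers of several lineages. In the whole lists, 4 of 5 precursor markers, 4 of 4 neuronal markers called in all 8 libraries and 1 of 3 such astrocyte markers ranked lower at 39 °C, against 59.8% of all genes (limma, adjusted p below 0.05). Ckm, Tnnt2, Mbp and 2 of 4 fibroblast or mesenchyme markers were also lower. Of 2 endothelial markers tested, Vwf was lower and Tek higher (15.7 points, limma adjusted p = 0.014), where 0.571% of all genes were higher. Among the common promoters, 3 of 5 precursor markers ranked lower at 39 °C (differences of −14.1 for Nes, −5.61 for Sox2 and −11.0 for Mki67), and 0 of 4 neuronal markers moved past the threshold. Ranked higher were 2 of 3 astrocyte markers (Aqp4 and Aldh1l1), 1 of 4 fibroblast or mesenchyme markers (Twist1) and 1 of 2 endothelial markers (Tek). Of all genes 8.94% were lower there and 10.0% higher. Among the other fibroblast or mesenchyme markers Pdgfra (−5.94) and Col1a2 (−2.50) went down and Col1a1 (1.72) up, and none of these passed. The part of other cell types in the results was not tested.

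The stretches printed here are a selection of those that the results name, without the promoters of Cacng2, Cacng3 and Cacnb2, whose summits lie in exons. They are given 5′ to 3′ on the plus strand of mm10 and lie within 100 bp of the summit of an accessible region, with annotated exons left out. Capitals mark matches, on either strand, to a set of short motifs: the GC box (GGGCGG), AP-1 (TGANTCA), RUNX (TGTGGT), TEAD (GGAATG), the CRE core (TGACG), the p53 decamer and RE1. The first is the open promoter of Scn2a, a sodium channel gene known for its RE1 element (chr2:65668531-65668685). The second is an intron of Cacna1a that was called at 37 °C in 4 of 4 libraries and at 39 °C in none and holds an RE1 match (chr8:84454625-84454825). Next are the introns of Cacnb4 (chr2:52471941-52472141) and Cacna1i (chr15:80289486-80289686) with the largest falls in whole-list rank. The last is an intron of Cacna1h, the region called in 0 of 4 libraries at 37 °C and 4 of 4 at 39 °C (chr17:25416215-25416415).
Scn2a promoter: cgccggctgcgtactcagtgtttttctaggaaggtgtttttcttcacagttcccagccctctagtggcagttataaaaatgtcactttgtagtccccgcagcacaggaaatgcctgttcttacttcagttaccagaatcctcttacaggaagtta
Cacna1a intron: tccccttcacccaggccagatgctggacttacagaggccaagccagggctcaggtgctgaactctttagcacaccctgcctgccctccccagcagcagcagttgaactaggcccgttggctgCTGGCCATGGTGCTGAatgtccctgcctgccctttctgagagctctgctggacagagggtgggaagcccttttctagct
Cacnb4 intron: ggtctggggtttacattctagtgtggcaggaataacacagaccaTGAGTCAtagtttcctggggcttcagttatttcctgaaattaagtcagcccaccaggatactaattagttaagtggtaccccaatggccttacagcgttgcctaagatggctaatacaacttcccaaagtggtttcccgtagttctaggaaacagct
Cacna1i intron: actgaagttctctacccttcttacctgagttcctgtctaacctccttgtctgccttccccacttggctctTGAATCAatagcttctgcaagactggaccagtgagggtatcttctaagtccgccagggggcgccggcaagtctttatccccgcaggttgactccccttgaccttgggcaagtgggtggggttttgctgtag
Cacna1h intron: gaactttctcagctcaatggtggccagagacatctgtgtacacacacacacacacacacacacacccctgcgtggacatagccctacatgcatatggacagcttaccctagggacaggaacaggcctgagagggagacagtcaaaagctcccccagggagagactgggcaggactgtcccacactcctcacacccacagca
The Cacna1a stretch holds 1 RE1 match, and the Cacnb4 and Cacna1i stretches 1 AP-1 match each. The Scn2a and Cacna1h stretches hold none of these letters. The Scn2a region does have a RUNX match within 100 bp of its summit, but not within the printed stretch, which leaves out 46 exonic bases.

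The first question was which channel promoters were open in SN4741 cells at all. A promoter counted as called when a peak touched 1 kb on either side of any annotated transcription start site (TSS) of the gene. Of the 38 genes, 25 (65.8%) had a promoter peak in at least 1 library, against 68.6% of all protein-coding genes. Called at both temperatures, each time by at least 2 of 4 libraries, were 21 (55.3%), against 62.7% of all genes. In all 8 libraries 17 (44.7%) were called, against 59.9%. The other 13 (34.2%) had no promoter peak in any library, against 31.4% of all genes. They were Scn4a, Scn7a, Scn8a, Scn9a, Scn10a and Scn11a, the beta gene Scn2b, the alpha1 genes Cacna1d and Cacna1e, and Cacng1, Cacng5, Cacng6 and Cacng8. A promoter with no peak in any library is called closed below, which says only that it was not called at this depth. The share of channel genes with any promoter peak was thus near that of all genes.

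**Figure D1:**
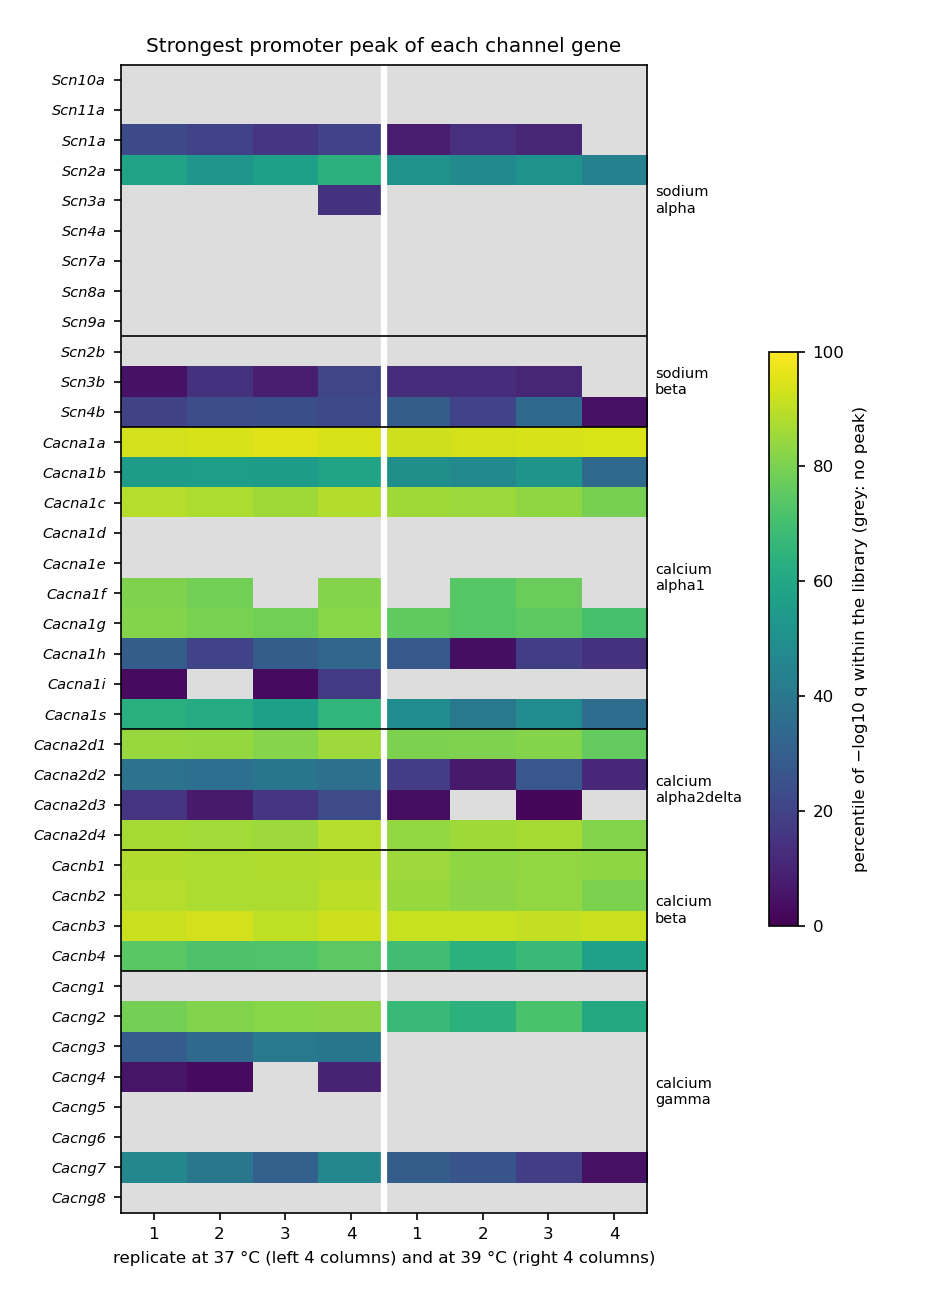
Each row is a channel gene, grouped by subunit family, and each column a library (4 at 37 °C on the left, 4 at 39 °C on the right). Colour gives the percentile of the strongest promoter peak within its library and grey means no peak. All calcium beta promoters are coloured in all 8 columns, while 6 of 9 sodium alpha rows are grey throughout.

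Sodium alpha genes were mostly closed. Of the 9 described, 3 had a promoter peak in some library and 1 in all 8. This was Scn2a, a main alpha subunit of central neurons (ENSMUSG00000075318.12), at percentiles of 58.0, 52.2, 56.3 and 64.4 at 37 °C and 51.5, 47.7, 51.1 and 43.8 at 39 °C. Its peak was at an internal TSS (region chr2:65668297-65669047), and it was the 1 called of 5 groups of Scn2a start sites. Scn1a, the alpha subunit of inhibitory interneurons, was called in 4 libraries at 37 °C and 3 at 39 °C at percentiles of at most 22.7, in a peak shared with the start of Gm13630. Scn3a, the alpha subunit of the embryonic brain, was called in 1 library, the fourth at 37 °C. The closed genes were the muscle subunit Scn4a, the sensory neuron subunits Scn9a, Scn10a and Scn11a, the sodium sensor Scn7a, and Scn8a, the main subunit of mature axons, although Scn8a has 9 groups of start sites.

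Among the sodium beta genes described, Scn4b was called in all 8 libraries, Scn3b in 7 and Scn2b in none. Scn4b, which encodes the beta subunit linked to resurgent current, was at 19.8, 23.7, 24.1 and 22.2 at 37 °C and at 29.4, 20.3, 34.2 and 4.64 at 39 °C. The values at 39 °C lay on both sides of those at 37 °C, with the fourth library lowest. Scn3b was at 4.82 to 20.8 where it was called.

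Of the calcium channel genes 76.9% had a promoter peak in some library, against 41.7% of the sodium channel genes described and 68.6% of all genes, differences that were not tested. By family these were 8 of 10 alpha1, 4 of 4 alpha2delta, 4 of 4 beta and 4 of 8 gamma genes. The beta genes had the highest ranks as a family. Cacnb3 was at 90.4 to 93.2 at 37 °C and 90.9 to 92.0 at 39 °C, Cacnb1 at 87.9 to 88.5 and 82.9 to 85.3, Cacnb2 at 87.6 to 89.9 and 80.2 to 84.5, and Cacnb4 at 72.2 to 74.8 and 57.2 to 69.5. These subunits carry alpha1 to the membrane, and Cacnb1 is the skeletal muscle form. Of the alpha2delta genes, Cacna2d1, Cacna2d2 and Cacna2d4 were called in all 8 libraries, and Cacna2d3 in 4 at 37 °C and 2 at 39 °C. At Cacna2d4 the 5′ start was closed, and the peaks were at internal start sites 94.2 and 96.0 kb downstream, 1 of them shared with Lrtm2, a gene inside it.

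The alpha1 genes span all calcium current types. Of the P/Q-type gene Cacna1a and the N-type gene Cacna1b, which open at nerve terminals, both were called in all 8 libraries. Cacna1a had the strongest peak touching a promoter window of all members, at 93.0 to 95.1 at 37 °C and 92.4 to 94.3 at 39 °C. That window was of a start site 250.6 kb inside the gene, near its 3′ end. With the summit required inside the window, the Cacna1a difference between temperatures went from −0.56 to 6.71 (limma adjusted p = 0.0714), so another peak was ranked in some libraries. The 5′ start of Cacna1a was called in 3 libraries at 37 °C and 2 at 39 °C, and a group of starts 26.9 kb downstream in all 8. For Cacna1c, the L-type channel of heart, smooth muscle and neurons, the 5′ start was closed and a group of starts 87.8 kb inside the gene was open in all 8 libraries, at 85.9 to 88.9 and 79.6 to 85.8. The L-type gene Cacna1d and the R-type gene Cacna1e were closed. The skeletal muscle L-type gene Cacna1s was called in all 8, in a peak shared with the start of Ascl5. The peak near the retinal gene Cacna1f, shared with Ccdc22, was called in all 8 libraries at 70.2 to 81.5, with its summit 1654 bp from the start site of Cacna1f. It reached into the window of 1 kb in 3 libraries at 37 °C and 2 at 39 °C. Of the T-type genes, which open at low voltage, Cacna1g and Cacna1h were called in all 8 and Cacna1i in 3 at 37 °C and none at 39 °C.

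In the gamma family, Cacng2 and Cacng7 were called in all 8 libraries, Cacng3 in 4 at 37 °C and none at 39 °C, and Cacng4 in 3 at 37 °C and none at 39 °C. Cacng2 encodes stargazin, the founding TARP, and its promoter peak is shared with the start of A730060N03Rik. The peaks of Cacna2d1, Cacnb1 and Cacng4 are likewise shared, with Gm3510, Gm11629 and Gm11650. Peaks shared with a neighbour cannot be assigned to 1 of the genes.

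The next question was whether the shift to the non-permissive temperature opened or closed channel promoters. Per library, 22 to 25 channel promoters were called at 37 °C and 17 to 21 at 39 °C, a mean of 23.5 ± 1.29 against 19.5 ± 1.73 (SD over 4 libraries each; p = 0.0286 by the two-sided exact permutation test). The groups did not overlap. As a share of the members this was 61.9% ± 3.41 against 51.3% ± 4.58, and for all protein-coding genes it was 66.4% ± 1.22 against 62.2% ± 1.20 (p = 0.0286, exact permutation test). With the 54845 strongest peaks of each library, which gives equal lists, the means were 16.2 at 37 °C and 16.5 at 39 °C, so the fall was not present there.

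One channel gene, Cacng3 (chr7:122670492-122769393), was called in 4 of 4 libraries at 37 °C and 0 of 4 at 39 °C. Cacng3 encodes a neuronal TARP. Its peak (chr7:122670748-122671235, in the first exon) ranked at 29.1, 34.1, 40.4 and 38.7 at 37 °C. Over all protein-coding genes 1.46% behaved this way, so 1 of 38 is near the background. No member had the opposite pattern, which 0.0137% of all genes showed. In equal lists Cacng3 was called in 2 libraries at 37 °C and none at 39 °C, and 0 members were restricted to 37 °C there, against 0.456% of all genes. The peak of Scn4b was called there in 0 of 4 libraries at 37 °C and 4 of 4 at 39 °C, a pattern of 0.0820% of all genes in equal lists. Called in fewer libraries at 39 °C were 8 members (21.1%), against 7.96% of all genes, and in more libraries 0, against 0.469%. Besides Cacng3 these were Cacna1i, Cacna2d3, Cacng4, Scn1a, Scn3a and Scn3b, all at 40.4 or lower in every library that called them, and Cacna1f, whose peak was called in all 8 libraries and varied in its reach into the window.

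Ranks were compared with limma for the 17 members called in all 8 libraries, in a fit over all 13145 such promoters with Benjamini-Hochberg adjustment. In the whole lists, 12 of the 17 ranked lower at 39 °C and 0 ranked higher at an adjusted p below 0.05. Over all genes 59.8% were lower and 0.571% higher. The 4 values at 39 °C lay below all 4 at 37 °C for 12 of the 17 (52.4% of all genes) and above them for 0 (0.510%). The median difference of the members was −6.68 percentile points, against −2.51 for all genes tested. The members started lower, with a median of the mean percentiles at 37 °C of 80.6, against 91.4 for all genes tested. Differences were not matched for rank at 37 °C. With the 6 libraries of fewer than 100 M fragments, 1 of 17 members, Cacng2, passed as lower and 0 as higher, against 13.4% and 0.418% of all genes. The differences there were below 0 for all 17, as with all 8 libraries, with a median of −5.36 points, while the median standard error was 2.98 with 2 libraries at 37 °C and 2.23 with 4. Among the common promoters, the same test found 3 members higher (Scn2a, Scn4b and Cacna1b) and 2 lower (Cacng2 and Cacnb2), where 10.0% of all genes were higher and 8.94% lower. The median difference there was 0.59 for the members and 0.40 for all genes. In equal lists 13 members were called by all 8 libraries and tested, of which Cacng2, Cacnb2 and Cacna1s were lower and 0 were higher (12.7% and 5.83% of all genes).

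Cacng2 (ENSMUSG00000019146.2, chr15:77991748-78120028) fell on every scale. In the whole lists its promoter peak was at 79.1, 80.9, 82.4 and 82.7 at 37 °C and at 67.9, 64.2, 71.5 and 60.7 at 39 °C. The groups did not overlap (difference −15.2, SE 2.23, limma adjusted p = 0.000769). On the common scale the means were 20.3 ± 3.62 and 13.4 ± 1.38 (SD, n = 4 each; limma adjusted p = 0.0172). The adjusted p lay between 0.000383 and 0.0172 over 16 alternatives, and with the 6 libraries of fewer than 100 M fragments the difference was −15.5 (limma adjusted p = 0.0154).

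Cacnb2, a beta subunit of heart and brain channels, fell from 88.5 ± 1.03 to 82.7 ± 1.86 in the whole lists (SD, n = 4 each; difference −5.77, SE 1.15, limma adjusted p = 0.00293). It fell by 5.34 points among the common promoters (SE 1.23, limma adjusted p = 0.0161), with no overlap. Its adjusted p ranged from 0.00199 to 0.0538 over 16 alternatives. The peak is shared with the start of Gm10849.

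**Figure D2:**
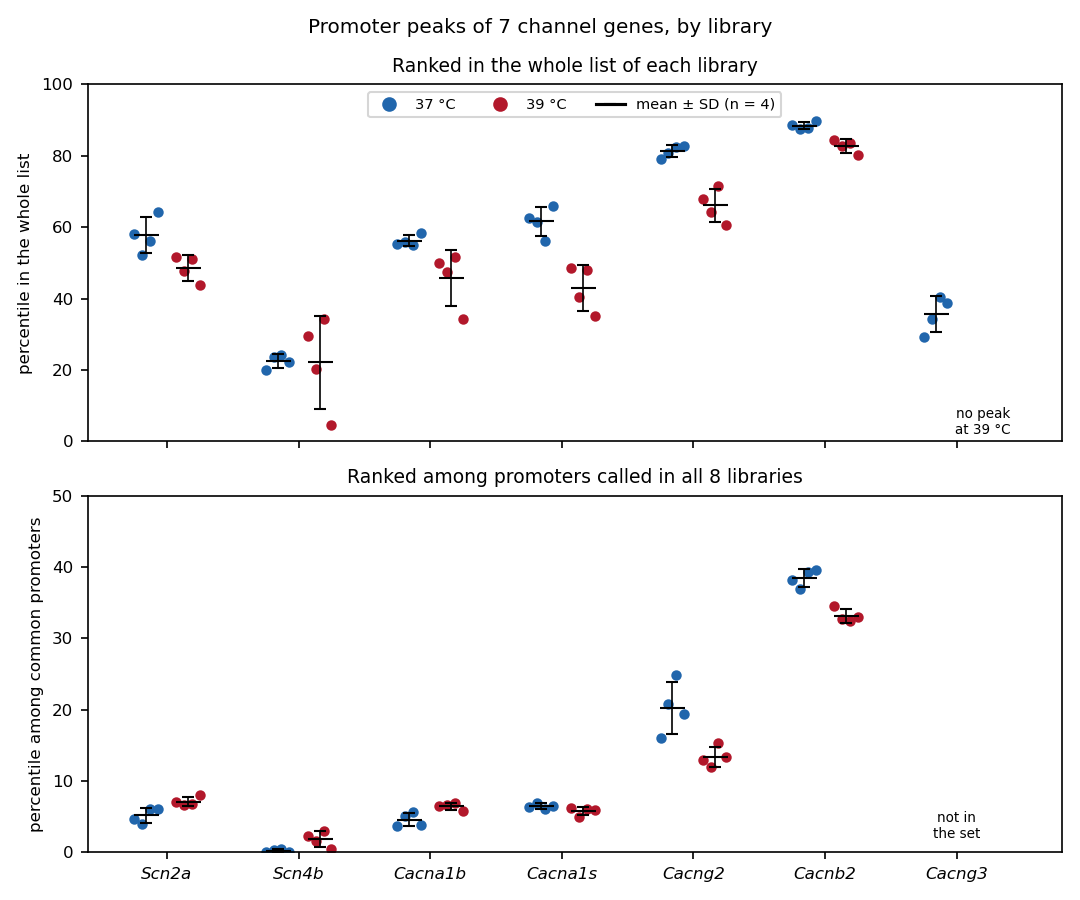
Points give each library's percentile for the promoter peak of 7 channel genes at 37 °C (blue) and 39 °C (red), in the whole list (top) and among promoters called in all 8 libraries (bottom, with its own axis range). Black marks give the mean and SD of 4 libraries. Cacng2 is lower at 39 °C in both panels, while Scn2a and Cacna1b are lower in the upper panel and higher in the lower one.

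Cacna1b, the N-type gene of nerve terminals, changed direction with the scale. In the whole lists it was at 55.4, 56.0, 55.1 and 58.5 at 37 °C and at 49.9, 47.4, 51.6 and 34.2 at 39 °C (difference −10.4, SE 3.85, limma adjusted p = 0.0349). Among the common promoters it was at 3.73, 5.15, 5.67 and 3.85 and at 6.56, 6.58, 6.94 and 5.75, which is a rise (difference 1.86, SE 0.54, limma adjusted p = 0.0391). Scn2a likewise fell by 9.20 points in the whole lists (SE 3.30, limma adjusted p = 0.0317) and rose by 1.93 among the common promoters (SE 0.57, limma adjusted p = 0.0435). Scn4b had a difference of −0.33 in the whole lists (limma adjusted p = 0.967) and rose by 1.66 among the common promoters (SE 0.51, limma adjusted p = 0.0473). When the same peaks were ranked among all regions called in all 8 libraries, in place of promoters alone, none of the 3 rises passed, with differences of 4.00 for Cacna1b, 4.44 for Scn2a and 4.60 for Scn4b (limma adjusted p = 0.286, 0.208 and 0.115). All 3 were below a percentile of 10 among the common promoters in every library. The alternatives vary the whole-list fit and hold the common scale as 1 of them, so they did not vary the 3 rises. Over them the adjusted p ran from 0.0232 to 0.473 for Cacna1b, from 0.0272 to 0.382 for Scn2a and from 0.0473 to 0.993 for Scn4b. The lowest belonged to falls for Cacna1b (−12.4 points, without replicate 3 at 39 °C) and Scn2a (−11.0 points, without replicate 2 at 37 °C).

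The 3 largest falls in the whole lists were at Cacna2d2, Cacng7 and Cacna1s. Cacna2d2, an alpha2delta gene of cerebellum, was at 37.5, 36.5, 38.7 and 37.1 at 37 °C and at 18.0, 7.17, 27.2 and 11.0 at 39 °C (difference −21.6, SE 5.07, limma adjusted p = 0.00552). Cacng7, a TARP-like gene, fell by 21.0 points (SE 6.06, limma adjusted p = 0.0132) and Cacna1s by 18.5 (SE 3.68, limma adjusted p = 0.00283). The differences of these genes among the common promoters were 0.089, 0.12 and −0.68, none of which passed the test. The peak of Cacna1s was lower in equal lists (−8.62, limma adjusted p = 0.0267) and when ranked among all regions called in all 8 libraries (−7.81, limma adjusted p = 0.0211). Its summit, at chr1:136051626, lay outside the 1 kb window, and Cacna1s was not among the 16 members tested with the summit inside the window. The other members that fell in the whole lists were Cacna1c, Cacna1g, Cacna2d1, Cacnb1 and Cacnb4, with differences from −4.28 (Cacnb1) to −8.88 (Cacnb4) points. None of these passed the test among the common promoters. Cacna1a, Cacna1h, Cacna2d4 and Cacnb3 passed on neither scale, with whole-list differences of −0.56, −11.9, −2.33 and −0.48 points. With promoter windows of 5 kb, Cacna1h passed (−22.1, limma adjusted p = 0.00437) and Cacnb1 did not (−0.53, limma adjusted p = 0.624).

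**Figure D3:**
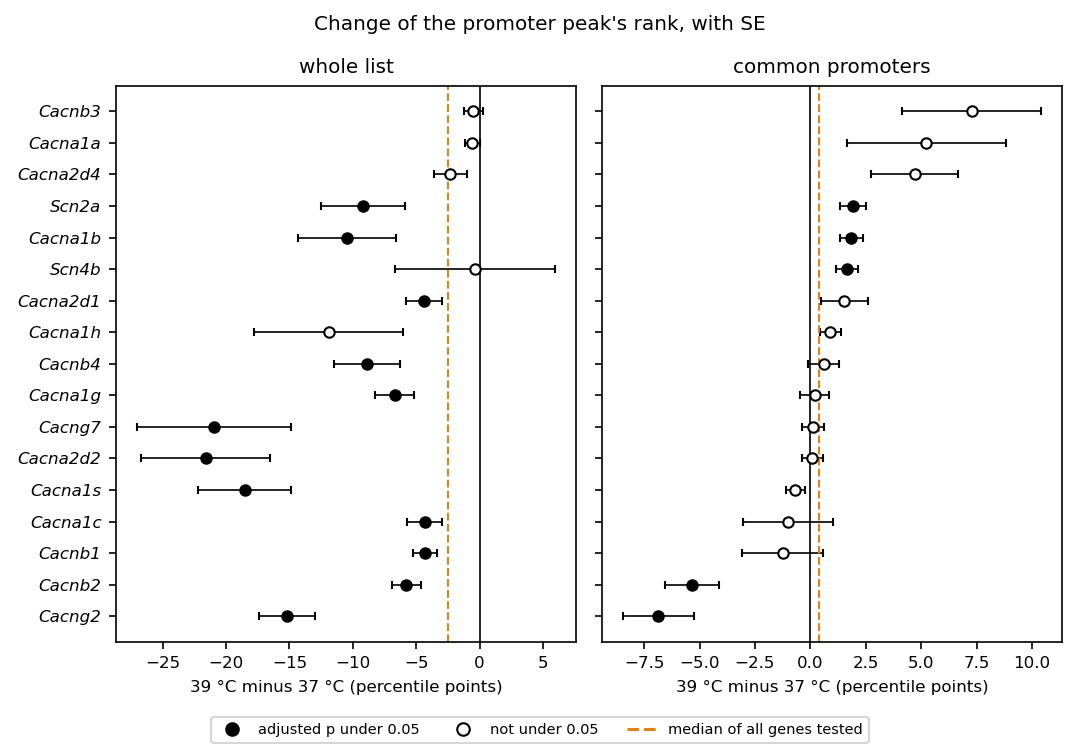
Each point is the difference in percentile between 39 °C and 37 °C for 1 of the 17 channel promoters called in all 8 libraries, with its standard error, in the whole lists (left) and among common promoters (right). Filled points passed an adjusted p of 0.05 and the dashed line is the median of all promoters tested. Of the filled points, 12 lie left of 0 in the left panel, against 2 left and 3 right of 0 in the right panel.

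Genes that act with the channels were listed as partners: intracellular FGF homologues, ankyrins and spectrin at the initial segment, RGK proteins and STAC adaptors that set calcium channel number, calmodulins, active zone proteins, the leak channel and its subunits, ryanodine receptors, and REST with its corepressors. Of 30 partners, 24 had a promoter peak in some library, 20 in all 8 and 6 in none (Fgf12, Fgf14, Stac, Rimbp2, Unc80 and Ryr2). Rem2, an RGK inhibitor of calcium channels, and Ryr1, the calcium release channel of skeletal muscle, were called in 4 of 4 libraries at 37 °C and 0 of 4 at 39 °C, as were 1.46% of all genes. In the whole lists 14 of 20 partners (70%) were lower and 0 higher, against 59.8% and 0.571% of all genes. Among the common promoters 3 were lower and 3 higher (15% each), against 8.94% and 10.0%. The lower ones were Stac3, an adaptor of the muscle channel (difference −21.6, limma adjusted p = 0.0298), Cbarp, which restrains calcium channel activity (−27.0, limma adjusted p = 0.0459), and Fgf11 (−7.42, limma adjusted p = 0.0149). Those that rose were Nedd4l, a ubiquitin ligase for sodium channels (9.02, limma adjusted p = 0.0417), Rrad (2.30, limma adjusted p = 0.0405) and Fgf13 (1.79, limma adjusted p = 0.0449). In the whole lists Fgf13 was lower (−10.5, limma adjusted p = 0.0275), and the differences of Rrad (−5.66) and Nedd4l (0.40) did not pass. The promoter of Rest itself had means of 96.2 at 37 °C and 96.5 at 39 °C (limma adjusted p = 0.616).

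Channel genes are long, and most of their accessible DNA lay in introns. Peaks of all libraries were merged into consensus regions, each called in at least 2 libraries, and those inside a channel gene but outside its promoter windows were taken. There were 164 such regions of 84777, in 29 of the 38 genes. Of their summits 154 were in introns and 9 in exons, and 9 regions lay within 1 kb of the start of another gene. All 8 libraries called 82 (50%), against 52.9% of all consensus regions. Cacna1c held 30 regions, 24 of them called in all 8 libraries, Cacna1a 20, Cacnb2 13 and Cacna1i 11. Of the 13 genes with no promoter peak, 10 held a region inside the gene, such as Scn8a with 8 and Scn10a with 5, and 3 held none (Cacng6, Scn7a and Scn11a). Of all genes with no promoter peak 18.7% held one, but these had a median length of 8.67 kb, against 71.7 kb for the 13.

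Per library, 139 to 179 peaks at 37 °C and 98 to 135 at 39 °C lay inside channel genes, a mean of 156 ± 18.7 against 117.5 ± 15.2 (SD over 4 libraries each; p = 0.0286 by the two-sided exact permutation test). Per 10000 peaks of the list the values were 19.1 ± 0.45 and 18.4 ± 0.87, and the groups overlapped (p = 0.229, exact permutation test). In equal lists the means were 99.2 and 98.2 peaks.

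**Figure D4:**
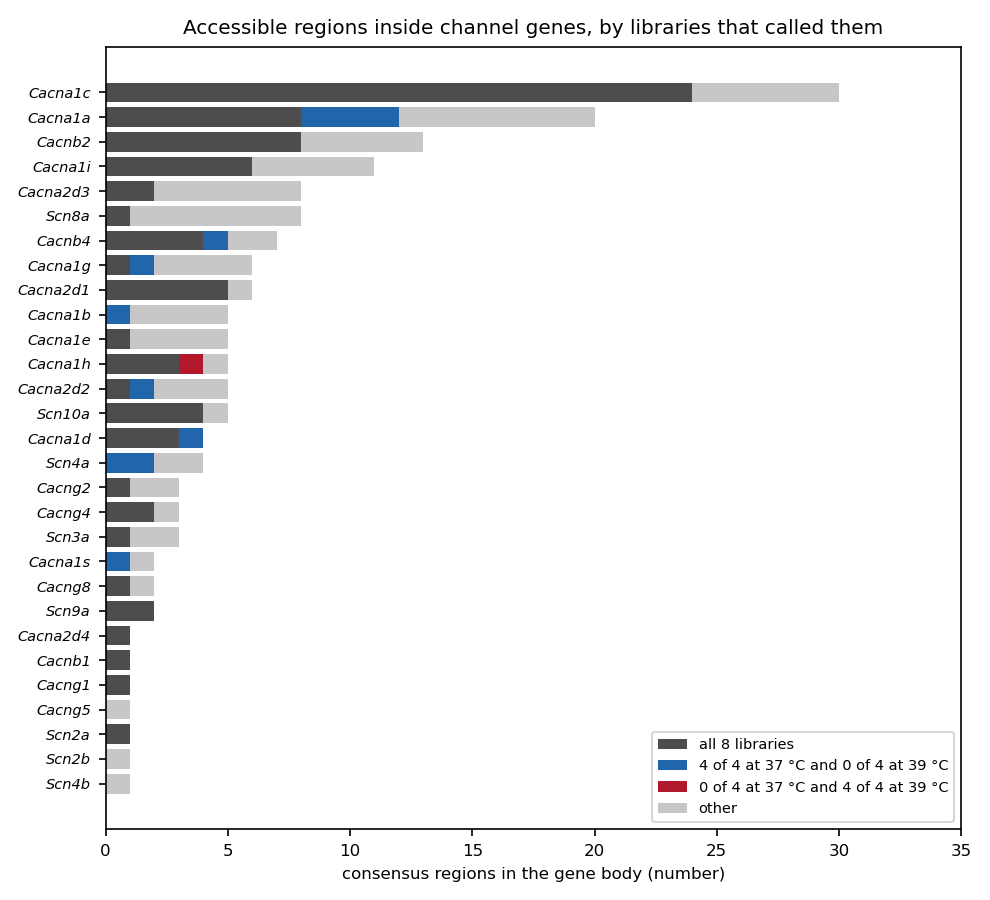
Bars give the number of accessible regions inside each of 29 channel genes, outside promoter windows. Dark grey are regions called in all 8 libraries, blue those called in 4 of 4 at 37 °C and 0 of 4 at 39 °C, red the opposite, and light grey the others. Cacna1c has the longest bar, at 30, and Cacna1a the most blue, at 4.

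In 12 regions (7.32%) all 4 libraries at 37 °C and none at 39 °C had a peak, against 6.04% of all consensus regions. In equal lists the count was 1 of 113 (0.885%), against 2.67% of all. They were spread over 8 genes. The 4 in introns of Cacna1a included the highest-ranked of all, chr8:84454523-84454960, at 36.1, 27.0, 45.0 and 48.9. That region holds an RE1 match beside its summit, printed above. The next were chr8:84579388-84580618 in Cacna1a (mean 34.4 ± 11.7), chr9:107463459-107464110 in Cacna2d2 (30.9 ± 5.76), chr2:52632836-52633380 in Cacnb4 (30.2 ± 7.52) and chr8:84390822-84391361 in Cacna1a (29.3 ± 5.02; SD, n = 4 each). Of the 4 regions in the closed muscle gene Scn4a, 2 were of this kind.

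The opposite pattern was found in 1 region (0.61%, against 0.314% of all consensus regions), in an intron of the T-type gene Cacna1h (chr17:25415837-25416832). It ranked at 17.0, 12.9, 2.41 and 0.97 at 39 °C, near the bottom of the lists. In equal lists 4 of 113 regions in channel genes (3.54%) had this pattern, against 1.92% of all.

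Of the 82 regions called in all 8 libraries, 57 (69.5%) ranked lower and 0 higher at 39 °C in the whole lists (limma over 44861 consensus regions, adjusted p below 0.05), where 62.2% of all regions were lower and 1.48% higher. With the 6 libraries of fewer than 100 M fragments, 27 of 83 were lower and 1 higher (24.8% and 2.21% of all regions), with a median difference of −7.56 points. The values at 39 °C lay below all those at 37 °C for 50 of the 82 (54.2% of all regions) and above them for 0 (0.798%). The median difference was −10.4 points, against −6.84 for all, and regions were not matched for rank at 37 °C. When the regions called in all 8 libraries were ranked among themselves, 23 were lower (28%) and 17 higher (20.7%), where 22.1% and 20.0% of all were. The median difference there was −0.74, against −0.15 for all. In equal lists 20 of 66 (30.3%) were lower and 12 (18.2%) higher, against 24.4% and 17.0% of all. Movement in both directions was thus also the pattern of all regions. On this common scale 6 genes held lower regions and no higher ones, 3 the reverse and 4 both.

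The largest fall in the whole lists was in an intron of Cacnb4 (chr2:52471410-52472620), the beta subunit of cerebellum whose loss causes ataxia in mice. It ranked at 68.7, 59.1, 60.5 and 68.6 at 37 °C and at 34.8, 28.3, 32.0 and 23.5 at 39 °C. No library at 39 °C reached the lowest at 37 °C (difference −34.6, SE 4.53, limma adjusted p = 1.6e-05), and on the common scale the fall was 25.7 points (SE 2.46, limma adjusted p = 1.24e-05). An intron of Cacnb2 (chr2:14620167-14621416) fell by 28.0 points in the whole lists and by 20.3 on the common scale (limma adjusted p = 0.000144 and 0.000257).

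Cacna1i, a T-type channel gene of thalamic and other central neurons (ENSMUSG00000022416.15, chr15:80287238-80398279), was chosen after its values were seen. Its promoter peak was weak, at 2.84, 2.74 and 17.0 in 3 libraries at 37 °C, and was called in none at 39 °C. Of its 11 internal regions, 5 were called in fewer libraries at 39 °C and 0 in more, against 37.9% and 5.46% of all consensus regions. The other 6 were called in all 8 libraries and all 6 ranked lower in the whole lists, 5 of them also on the common scale, against 62.2% and 22.1% of all regions. The strongest, chr15:80316153-80320743, about 30 kb into the gene, was at 96.1, 94.6, 94.8 and 96.6 at 37 °C and at 85.9, 87.3, 86.5 and 81.9 at 39 °C. The groups were separate (difference −10.1, SE 0.93, limma adjusted p = 7.11e-07), also on the common scale (−12.1, SE 0.79, limma adjusted p = 1.38e-06). The region next to the promoter, chr15:80288900-80290302, whose summit sequence is printed above, went from 50.7, 38.0, 42.0 and 55.7 to 11.9, 13.8, 10.8 and 14.3 (difference −33.9, SE 5.54, limma adjusted p = 0.000102). It fell by 10.3 points on the common scale (SE 2.19, limma adjusted p = 0.00277). The regions chr15:80324460-80325888 and chr15:80386806-80388292 fell by 30.9 and 29.6 points in the whole lists and by 13.9 and 21.8 on the common scale.

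**Figure D5:**
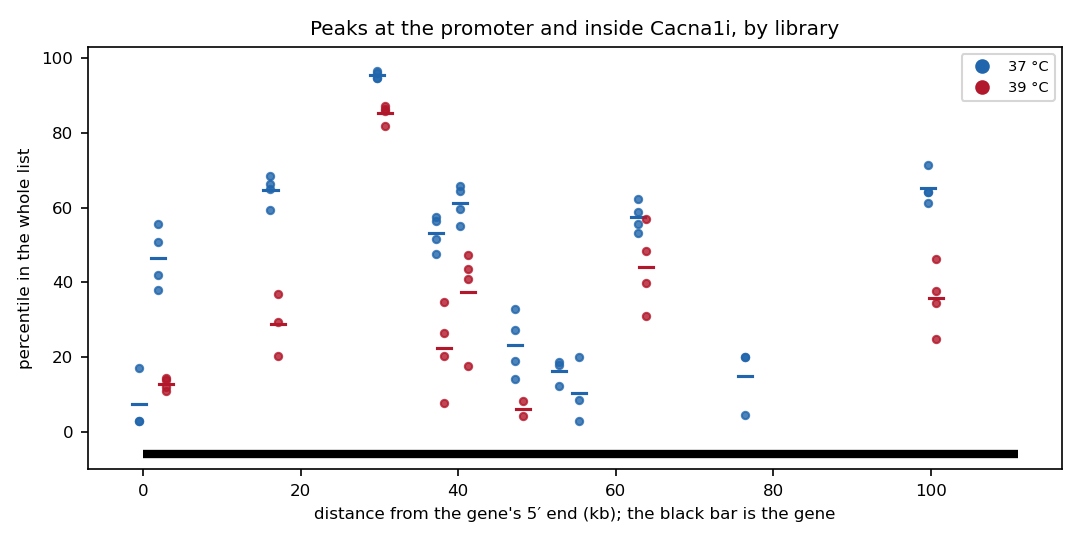
Points are the percentiles of the peaks at the promoter and inside Cacna1i in each library, by distance of the region's summit from the 5′ end of the gene, at 37 °C (blue) and 39 °C (red, drawn slightly to the right). Short lines are means over the libraries with a peak. At each of the 12 positions the red mean is below the blue one or there is no red point.

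Cacna1a held falls and rises side by side. On the common scale 2 of its regions were lower and 3 higher at 39 °C. The largest rise among all members was at chr8:84577269-84578339 in its introns. This region was at 67.1, 66.2, 58.5 and 71.1 at 37 °C and at 72.0, 71.9, 73.6 and 61.7 at 39 °C in the whole lists, which overlapped (difference 4.07, limma adjusted p = 0.294). It rose by 19.4 points without overlap on the common scale (SE 2.16, limma adjusted p = 3.62e-05). A region near the 5′ end of the gene, chr8:84404204-84405351, rose by 16.9 points on that scale (SE 1.98, limma adjusted p = 5.17e-05), where the whole-list difference was 1.54 (limma adjusted p = 0.716). Cacna1c held 7 lower and 6 higher regions on the common scale. Its largest rise was 16.2 points (chr6:118902562-118904407, limma adjusted p = 0.000463) and its largest fall 15.0 (chr6:118791346-118792944, limma adjusted p = 0.00107). A rise was also found in Cacnb2 (chr2:14834696-14835372, 15.8 points, limma adjusted p = 2.66e-05). These rises were not seen in the whole lists, where no region in a channel gene passed the test upwards. Scn10a, a sensory neuron gene with a closed promoter, held 4 regions called in all 8 libraries, of which 2 were lower on the common scale, the larger by 19.2 points (chr9:119631508-119633677, limma adjusted p = 9.93e-05).

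Promoters and gene bodies differed in the sequence at their summits. A GC box lay within 100 bp of the summit in 40.5% of 37 promoter regions and in 4.88% of 164 gene-body regions, against 14.7% of all consensus regions. An AP-1 match was found in 8.11% of the promoter regions and 35.4% of the gene-body regions, against 29.0% of all. RUNX matches were at 13.5% and 27.4% (24.5% of all), TEAD at 10.8% and 17.1% (16.9%), the CRE core at 18.9% and 9.15% (10.3%) and the p53 decamer at 5.41% and 4.88% (7.27%). These shares are descriptions, and promoters and gene bodies were not matched for base composition. Of the 23 gene-body regions that fell on the common scale 39.1% had an AP-1 match, and of the 17 that rose 35.3%. An RE1 match was found at 0.156% of all consensus regions, at none of the promoter regions and at 2 gene-body regions. These are the region of Cacna1a shown above and one in an intron of Cacng2 (chr15:78066383-78066769), called in 3 libraries at each temperature. No RE1 match was found near the open promoter of Scn2a, which says only that these letters are not in that window.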

How the data were processed

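ATAC-seq peak lists of 8 SN4741 libraries, 4 at 37 °C and 4 at 39 °C, were used. Groups follow the sample labels. The authors aligned reads to mm10 with Bowtie2 2.4.1, removed duplicates and called peaks per library with MACS3 3.0.0a7 at a q-value of 0.05, without a control. The methods also describe removing peaks in blacklisted regions. Peak numbers in the deposited lists run without gaps, and no such filter was applied here. Per peak, the deposited lists hold the pileup signal, the fold enrichment (a ratio to background) and p-values and q-values, both as −log10. Only positions, summits and −log10 q were used, and heights are not scaled between libraries.

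Promoters were TSS ± 1 kb of any GENCODE M21 transcript, and the strongest peak was ranked. Consensus regions were merged at 1 bp overlap and kept with 2 libraries. Ranks were fitted with limma 3.58.1 (R 4.3.3; trend, Benjamini-Hochberg over all features called in all 8 libraries) and were tested on simulated data. For counts per library, the exact permutation test ran over 70 assignments. A feature was called restricted when found in 4 of 4 libraries of one temperature and 0 of 4 of the other. Sequences were read from the GRCm38 genome, and motifs were searched within 100 bp of summits on both strands without mismatch.

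Members, gene lists, markers and motifs were chosen with earlier results of these data known. Of the 40 genes that the name rule takes, 2 are not reported here and enter no count of members. Members are named with values when restricted, called by limma, among the 3 largest differences in a direction, or Cacna1b and Scn2a. Values of other members were added in the account by family. Regions are named when restricted (the 5 strongest) or among the 5 largest differences. The regions named for rises, and Cacna1i, Scn10a and Cacna1c regions beyond those, were chosen after their values were seen. Alternatives were −log10 q of at least 5, equal lists (54845 peaks), each library left out, the 6 libraries under 100 M fragments, other promoter definitions (5′ end only, 5 kb, summit inside), 50% coverage, a replicate block, normal scores and exact tests.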

Additional observations from a re-analysis of the deposited data

How the results depend on the processing

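The counts of lower promoters and lower gene-body regions depended on how rank was scaled and were smaller without the deep libraries, which leaves 2 libraries at 37 °C, so that depth and number of libraries cannot be told apart there. With equal lists, 39 °C held 0.25 more called channel promoters per library than 37 °C and a mean difference of −1 gene-body peaks, 0 promoters were restricted to 37 °C and 1 to 39 °C, and 1 gene-body region was restricted to 37 °C and 4 to 39 °C. There 3 of 13 promoters were lower and 0 higher, and 20 of 66 gene-body regions lower and 12 higher. On the common scale 2 promoters were lower and 3 higher, and 23 regions lower and 17 higher. With −log10 q of at least 5, 7 of 14 promoters were lower and 0 regions were restricted to 39 °C, as was also the case with 50% of a region covered. In libraries of fewer than 100 M fragments 1 promoter was lower, 27 regions were lower and 1 higher, and 5 were restricted to 39 °C. With a window of 5 kb the promoter count differed by −6.25 per library and 3 promoters were restricted to 37 °C. The cause of these changes was not tested, except that equal and common lists remove the difference in list length by construction.

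Leaving out 1 library gave 8 (without replicate 1 or without replicate 4 at 37 °C, the deep ones) to 13 lower promoters, 1 to 2 promoters restricted to 37 °C (2 without replicate 2, which adds Cacna1i, or 3, which adds Cacng4), 12 to 18 regions restricted to 37 °C (18 without replicate 2 at 37 °C), 1 to 2 restricted to 39 °C (2 without replicate 4 of either temperature) and 0 to 2 higher regions (2 without replicate 4 at 39 °C). The falls of Cacna1c and Cacna2d1 did not pass without replicate 1 or 4 at 37 °C, and those of Cacna1b and Scn2a did not pass in 4 of 8 such fits each. Scn4b ran from −4.34 (without replicate 3 at 39 °C) to 5.50 points and was higher by 0.095, 0.21, 0.28 and 5.50 points without replicate 2 or 3 at 37 °C and 2 or 4 at 39 °C, respectively. Cacna1h passed as lower without replicate 1 at 39 °C (−15.8 points, limma adjusted p = 0.0431).

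Some members changed sign in whole-list rank against other scales. In equal lists the differences were 1.34 for Cacna1a, 3.00 for Cacna1b, 0.29 for Cacna2d1, 1.74 for Cacna2d4, 2.02 for Cacnb3 and 3.23 for Scn2a. On the common scale they were 5.23 for Cacna1a, 1.86 for Cacna1b, 0.19 for Cacna1g, 0.90 for Cacna1h, 1.53 for Cacna2d1, 0.089 for Cacna2d2, 4.70 for Cacna2d4, 7.28 for Cacnb3, 0.59 for Cacnb4, 0.12 for Cacng7, 1.93 for Scn2a and 1.66 for Scn4b. With the summit inside the window Cacna1a was at 6.71. Cacng2 passed the test downwards in all 16 alternatives run.

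Correlations of deviations between same-numbered libraries ran from −0.514 to 0.288 at promoters. They cannot show whether same-numbered libraries were prepared together, which the labels do not say. With the replicate number as a block, 9 of 17 promoters and 40 of 82 gene-body regions were lower and 0 higher, against 48.0% and 44.2% lower of all promoters and regions. The files give no counts per region, so depth limits what can be said of a feature that a library did not call.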
